A study of Gallus gallus with 12 samples.

Results

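The genes examined here encode subunits of the proteasome and of the cytosolic chaperonin, together with their dedicated assembly and regulatory factors. Members were all genes whose single gene symbol on the array annotation follows the PSMA to PSMG families, CCT2 to CCT8, or is TCP1, and the brightest probe set stood for each gene. This gave 45 genes of the 13009 genes with a single symbol, 37 from the PSM families and 8 from the chaperonin, and all 45 were among the 10001 genes that passed the filter on dim probe sets. The symbol of PSMC3IP fits the rule, but it encodes a factor of meiotic recombination, so 44 of the 45 are subunits or factors of the 2 machines. RNA came from chick embryos (Gallus gallus) labelled as stage HH10, from neural tubes loosened with the protease Dispase, freed of other tissue and cut by hand into the midbrain (m; its caudal part, per the methods) and rhombomeres r1, r2, r3, r4 and r5, the successive segments of the hindbrain. The 6 regions are each represented by 2 pools of tissue gathered on separate occasions, set 1 and set 2, and each pool was hybridised to its own Affymetrix Chicken GeneChip, 12 arrays in all. The embryos were untreated apart from this dissection, and no region is a control, so each region was set against the mean of the other 5.

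The proteasome is the barrel-shaped protease that degrades proteins marked with ubiquitin. Its 20S core is built from alpha rings, which gate the entry, around beta rings, of which some subunits carry the cutting sites, and the 19S cap on either end recognises, unfolds and feeds in the substrate. The chaperonin, also called TRiC or CCT, is a double ring of related subunits that folds newly made proteins, actin and tubulin above all, in a closed chamber with the use of ATP. Both machines are present in all cells and are built at fixed ratios of subunits, and many of their genes are usually counted as housekeeping genes. At this stage most cells of the neural tube are dividing progenitors.

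Values are scaled signals, that is, the deposited linear signal divided by the median of its array and multiplied by 5.90, the mean of the 12 array medians. A difference was called where limma's moderated test gave a Benjamini-Hochberg adjusted p under 0.05 over all 21731 probe sets tested, and a log2 fold change (log2FC) is that region minus the mean of the other 5. In RNA from pooled tissue, fewer cells of a type and less RNA per cell cannot be told apart.

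The 2 r3 arrays stood apart from the others, which bears on most of the comparisons. Their median deposited signal was 2.27 and 4.35, against 4.19 to 9.67 on the other 10 arrays, and the ratio of the 3′ to the 5′ control probe set of actin, a measure of how complete the labelled transcripts are, was 181 and 70.0 in r3, against 7.15 to 44.7 elsewhere. For GAPDH this ratio was 41.7 and 42.9 in r3, against 0.941 to 7.49. The r4 arrays came next, with an actin ratio of 35.4 and 44.7. Scaling to the median put the median log2FC of all tested probe sets at −0.63 in r3 (0.06 to 0.24 in the other regions), against −0.12 under quantile normalisation and −0.08 under scaling to the 2% trimmed mean, so r3 values are also given relative to that shift and under all 3 scalings. Summed marker signals of neural crest, neurons and neural progenitors also lay outside the range of the other arrays in r3. Those of the other cell type lists overlapped with that range. The summed signal of 5 of 5 neural crest markers was 139.8 and 151 in r3 and 197 to 1625 elsewhere, that of 4 of 5 listed neuronal genes was 37.1 and 38.6 in r3 and 109 to 284 elsewhere, and that of 6 of 6 head mesoderm and somite genes was 203 and 122 in r3 and 38.2 to 127 elsewhere. Of the 3 neuronal genes tested, 2 were called lower in r3, and 1 had a positive log2FC of 1.57 without a call. For 6 of 10 blood and endothelial genes the sum was 82.8 and 92.0 in r3 and 18.5 to 141 elsewhere, 6 of 6 neural progenitor genes summed to 3175 and 2936 in r3 and 1372 to 2262 elsewhere (most of it from NES, CDH2 and PAX6, while SOX3 of that list was lower in r3, with a log2FC of −1.11 and adjusted p = 0.00962), and the neuronal factor NEUROD1, near the floor, averaged 0.118 to 1.69 in every region. For 2 of 3 notochord genes the sum was 22.55 and 17.9 in r3 and 21.3 to 92.8 elsewhere, and for 4 of 6 surface ectoderm and otic genes it was 776 and 677.5 in r3 and 623 to 1271 elsewhere. The part of the transcript ratio and of cell make-up in the differences between regions was not tested. Of 9 listed region markers 7 were annotated and tested. The highest mean log2 signal was in m for 2, r1 for 1, r4 for 1, r5 for 3 and r2 or r3 for 0. Among them, OTX2 was highest in m (849), HOXB1 in r4 (296) and HOXA3 in r5 (508). In r3, 4 of the 7 were called lower and 1 higher (57.1% and 14.3%, beside 39.7% and 7.12% of all probe sets).

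The moderated F test over the 6 regions called 26 of the 45 members (57.8%), beside 34.9% of all probe sets tested. Members were each read by the brightest probe set of their gene, while that share covers bright and dim probe sets alike. The part of signal level in the difference was not tested. Most members varied little in level. The ratio of a member's highest to its lowest region mean ran from 1.17 for PSMB2 to 20.5 for PSMD3, with a median of 1.79, and was under 2 for 24 members. In 36 members the lowest region was r3, and the highest was r4 in 19 and m in 12. Of all 21731 probe sets tested, r3 was lowest in 11842, r4 highest in 3546 and m highest in 5660. Over the 12 arrays the median pairwise correlation of members' log2 signals was 0.60 for all members. It was 0.86 among the 19S ATPases and −0.12 among the beta ring genes. All pairs share the same arrays and the shift of r3 under median scaling, at −0.63 over all tested probe sets. The correlation among all probe sets was not computed.

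**Figure D1:**
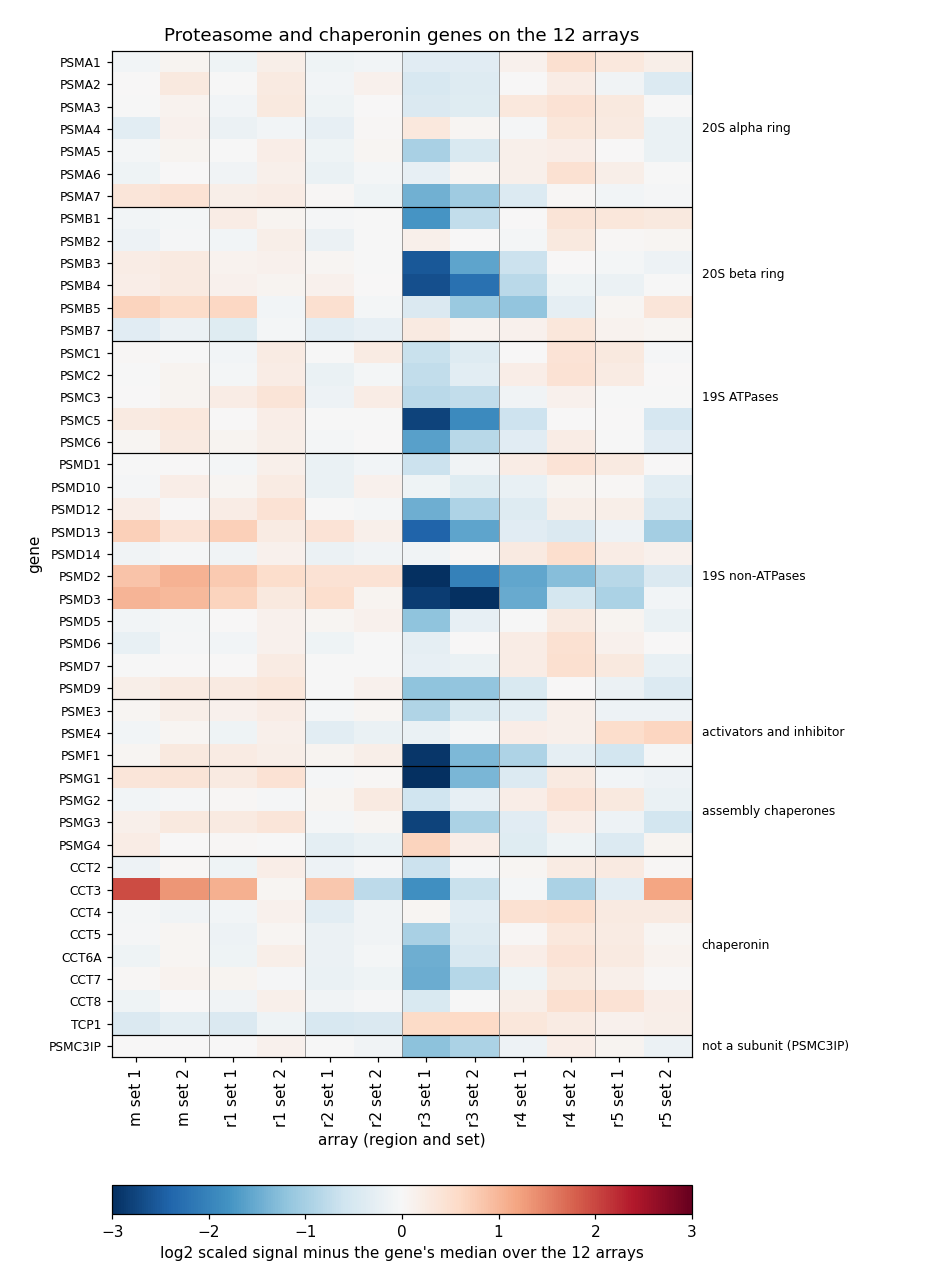
Each row is a member and each column an array, by region and set, and the colour gives the log2 scaled signal minus the gene's median over the 12 arrays, with the scale ending at −3 and 3. The 2 r3 columns are blue for most genes. Among the darkest are PSMD3, PSMD2, PSMB4, PSMC5, PSMF1, PSMG1, PSMD13 and PSMB3, and PSMG3 in set 1. Those of TCP1, PSMG4, PSMB7, PSMB2 and PSMA4 are not blue.

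In r3, 30 members were called lower and 2 higher, against 39.7% and 7.12% of all probe sets. The members' median log2FC of −0.71 lay close to the −0.63 of all probe sets, and 25 of the 45 lay below that median, against 36 under quantile normalisation and 24 under the trimmed mean. Under quantile normalisation 31 members were called lower, 24 of them among the 30 (background 23.7%), with a median of −0.50, and 2 higher (background 17.8%). Under the trimmed mean 17 were called lower, all among the 30 (background 23.6%), with a median of −0.15, and 8 higher (background 18.01%). Calls that stood under all 3 scalings were 17 lower and 1 higher, against 20.1% and 6.84% of all probe sets. In 27 members both r3 arrays lay below all 10 others, as did 29.4% of probe sets. Beside these 17, another 9 members had a negative log2FC under every scaling without a call under each, 3 had a positive one under every scaling, and in 16 the sign in r3 differed between scalings.

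**Figure D2:**
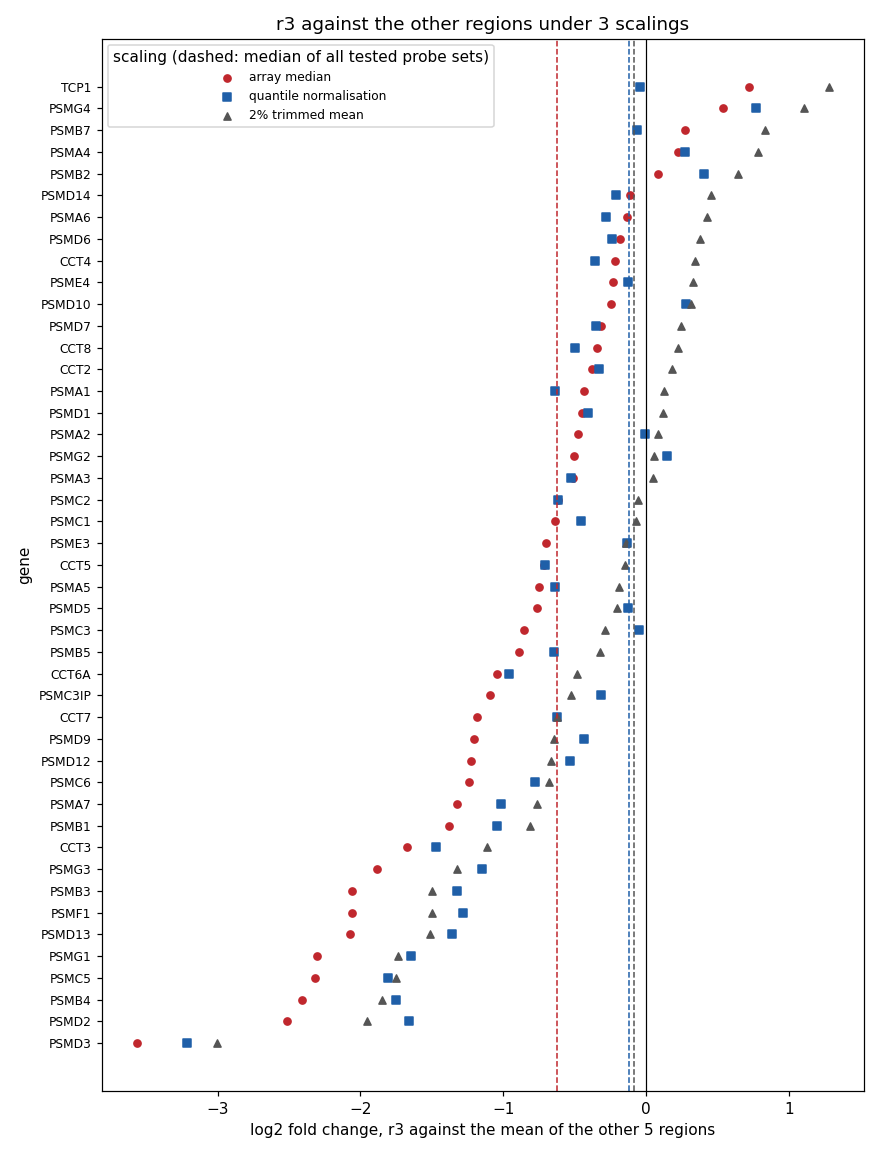
The log2FC of r3 against the mean of the other 5 regions is plotted for each of the 45 members under scaling to the array median (red circles), quantile normalisation (blue squares) and the 2% trimmed mean (grey triangles), with dashed lines at the median of all tested probe sets under each. PSMD3 lies at −3.57, −3.22 and −3.01, while TCP1 lies at 0.72, −0.04 and 1.28.

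Of the alpha ring genes, 5 of 7 were called lower in r3 (71.4%, beside 39.7% of all probe sets), but only PSMA7 under all 3 scalings. PSMA7 read 356 and 458 in r3, against 726 to 1311 (median 985) on the other 10 arrays. Both r3 arrays lay below every other array, and the log2FC was −1.32 ± 0.15 (SE; adjusted p = 3.53e-05), or −0.70 relative to all probe sets. PSMA5 read 529 and 753 in r3, against 901 to 1198 (log2FC −0.75, adjusted p = 0.0017), again without overlap. Under median scaling the other 3 changed by less than the general shift. PSMA1 read 1337 and 1334 in r3, against 1538 to 2349, and PSMA3 read 814 and 851, against 1006 to 1472. Their log2FC of −0.43 and −0.51, and the −0.48 of PSMA2, turned to 0.13, 0.05 and 0.09 under the trimmed mean. Under quantile normalisation PSMA1 (−0.63, adjusted p = 6.5e-05) and PSMA3 (−0.53, adjusted p = 0.000645) were called lower, and PSMA2 (−0.01) was not. The median of all probe sets was then −0.12. PSMA4 had the least evidence of variation in this ring (F test adjusted p = 0.659), with 832 and 691 in r3, against 532 to 842. It was called in r3 only under the trimmed mean, as higher (0.785, adjusted p = 0.00273). PSMA6 at 1068 and 1315 in r3, against 1101 to 1745, was not called under median scaling (log2FC −0.14, adjusted p = 0.464). It was called lower under quantile normalisation (−0.28, adjusted p = 0.036) and higher under the trimmed mean (0.43, adjusted p = 0.00939).

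The beta ring held genes far lower in r3 beside genes that were not called. PSMB4, a non-catalytic subunit, read 133 and 174 in r3, against 471 to 989.9 (median 853) elsewhere, a log2FC of −2.41 ± 0.17 (SE; adjusted p = 2.68e-06), or −1.78 relative to all probe sets. PSMB3, also non-catalytic, read 90.1 and 175 in r3, against 336 to 631 (log2FC −2.06, adjusted p = 2.64e-05), and PSMB1 read 281.5 and 578, against 916 to 1272 (log2FC −1.38, adjusted p = 0.000263). These 3 genes were lower in r3 under all 3 scalings and did not overlap with any other array, beside 20.1% and 29.4% of all probe sets. The remaining 3 were not called in r3 under median scaling. PSMB7, which carries the trypsin-like site, read 1991 and 1779 in r3, against 1291 to 2077, with a log2FC of 0.27 (adjusted p = 0.101) that became 0.84 (adjusted p = 0.000351) under the trimmed mean and −0.07 (adjusted p = 0.473) under quantile normalisation. PSMB2 was the flattest of all members, at 430 and 389.9 in r3 and 343 to 474 on the other arrays (log2FC 0.08, adjusted p = 0.659), and was called higher in r3 under quantile normalisation (0.41, adjusted p = 0.0048) and under the trimmed mean (0.65, adjusted p = 0.00178). PSMB5, which carries the chymotrypsin-like site, was read by a dim probe set, at 10.3 and 6.43 in r3, against 6.13 to 22.05 (log2FC −0.89, adjusted p = 0.0688).

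All 5 measured genes of the ATPase ring, the motor of the 19S cap, were called lower in r3, and in each both r3 arrays lay below the other 10. Of all probe sets, 39.7% were called lower in r3 and 29.4% had both r3 arrays below the others. PSMC5 moved most, at 185.5 and 340.0 in r3, against 832 to 1588 (median 1284), a log2FC of −2.31 ± 0.22 (SE; adjusted p = 1.31e-05). PSMC6 read 225.5 and 393 in r3, against 551 to 849 (log2FC −1.24, adjusted p = 0.000452). These 2 kept the call under all 3 scalings, at −1.80 and −0.78 under quantile normalisation and −1.75 and −0.68 under the trimmed mean. PSMC3 read 94.2 and 100.1 in r3, against 150.2 to 215 (log2FC −0.85, adjusted p = 0.000923). It was not called under quantile normalisation (−0.05, adjusted p = 0.779) or the trimmed mean (−0.29, adjusted p = 0.0968). PSMC2 at 745 and 1004 in r3, against 1091 to 1685, and PSMC1 at 497 and 603 in r3, against 747.5 to 1044, had log2FC of −0.62 and −0.64, close to the −0.63 of all probe sets under median scaling. Under quantile normalisation they were called lower at −0.615 (adjusted p = 0.000512) and −0.455 (adjusted p = 0.00551), beside −0.12 for all probe sets. Neither was called under the trimmed mean (−0.06 and −0.07). PSMC4 was not analysed here.

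Among the 11 genes of the non-ATPase group, 7 were called lower in r3 and 5 under all 3 scalings, beside 39.7% and 20.1% of all probe sets. The group holds the scaffold and lid of the cap and 3 chaperones of its assembly. PSMD3 (Rpn3 of the lid) read 13.2 and 5.14 in r3, against 33.0 to 191 (median 108), with the strongest log2FC of any member, −3.57 ± 0.36 (SE; adjusted p = 1.6e-05), or −2.94 relative to all probe sets. PSMD2 (Rpn1, which binds ubiquitin receptors) read 21.05 and 42.0 in r3, against 57.9 to 353 (median 229), a log2FC of −2.52 ± 0.23 (SE; adjusted p = 1.11e-05). PSMD13 (Rpn9 of the lid) read 13.4 and 23.6 in r3, against 35.2 to 117 (log2FC −2.07, adjusted p = 0.000101). Lid gene PSMD12 (Rpn5) and assembly chaperone PSMD9 completed the 5, with 126 and 186 in r3, against 252 to 472, for PSMD12 (log2FC −1.23), and with 113 and 115 in r3, against 189.9 to 329, for PSMD9 (log2FC −1.20). PSMD5, another assembly chaperone (log2FC −0.77), and PSMD1, the scaffold partner of PSMD2 (−0.45), were called lower under median scaling, and PSMD1 turned to 0.12 under the trimmed mean. PSMD1 was also called lower under quantile normalisation (−0.405, adjusted p = 0.0104), and PSMD5 was not (−0.12, adjusted p = 0.464). PSMD14, the deubiquitinase of the lid, read 1013 and 1131 in r3, against 974 to 1562, and was not called under median scaling (log2FC −0.11, adjusted p = 0.508). It was called lower under quantile normalisation (−0.21, adjusted p = 0.0413) and higher under the trimmed mean (0.45, adjusted p = 0.00493). Lid genes PSMD6 and PSMD7 (log2FC −0.18 and −0.32) and the assembly chaperone PSMD10, with 274 and 231 in r3, against 239 to 356 (F test adjusted p = 0.568), were not called under median scaling either. Under quantile normalisation PSMD6 (−0.24, adjusted p = 0.0409) and PSMD7 (−0.35, adjusted p = 0.0206) were called lower. Under the trimmed mean PSMD6 was called higher (0.38, adjusted p = 0.0145). Under median scaling, genes of the same lid thus ran from −3.57 ± 0.36 for PSMD3 to −0.11 ± 0.13 for PSMD14 (SE).

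The 2 activators and the inhibitor all passed the F test, beside 34.9% of all probe sets, with different regions behind it. PSMF1 (PI31, which inhibits the core in vitro) read 14.9 and 44.5 in r3, against 59.6 to 139 (log2FC −2.06 ± 0.32, SE; adjusted p = 0.000328), and held under all 3 scalings. PSME3 (PA28 gamma, the nuclear activator) read 202 and 275 in r3, against 309.8 to 444 (log2FC −0.70, adjusted p = 0.00373), a value close to the general shift. PSME3 was not called in r3 under quantile normalisation (−0.13, adjusted p = 0.25) or the trimmed mean (−0.14, adjusted p = 0.351). PSME4 (PA200) was the member called higher in r5, at 1092 and 1169, against 606 to 857 on the other 10 arrays, a log2FC of 0.63 ± 0.13 (SE; adjusted p = 0.0279) in r5, and it was not called in r3 (−0.23, adjusted p = 0.159). The r5 value stood under all 3 scalings. It lost the call when any of 7 arrays was left out, among them either m array and either r5 array (adjusted p = 0.0604 to 0.328), and kept it without both r3 arrays (0.61, adjusted p = 0.00441).

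The 4 chaperones that assemble the core act as pairs, PSMG1 with PSMG2 and PSMG3 with PSMG4, and in r3 the partners of a pair read differently. PSMG1 read 11.6 and 35.9 in r3, against 70.8 to 125 (log2FC −2.30 ± 0.32, SE; adjusted p = 0.000149), while PSMG2 read 170.4 and 217 in r3, against 222 to 339 (log2FC −0.51, adjusted p = 0.0263, turning to 0.15 and 0.06 under quantile normalisation and the trimmed mean). PSMG3 read 68.3 and 242 in r3, against 319.5 to 597 (log2FC −1.88, adjusted p = 0.000691). Its partner PSMG4 was the member called higher in r3 under all 3 scalings, at 574 and 414 in r3, against 271 to 421, where 1 r3 array overlapped with the others (log2FC 0.54 ± 0.17, SE; adjusted p = 0.0214). Without set 1 of r3 that call was lost (adjusted p = 0.214), as were those of PSMG2, PSMA2, PSMC2, PSMD1, PSMD5 and CCT3 (0.0591 to 0.388). All 8 subunits of the chaperonin ring were measured, and 6 passed the F test, beside 34.9% of all probe sets. TCP1 (CCT1) ran against the rest, at 4481 and 4543 in r3, against 2138 to 3783, above every other array (log2FC 0.72 ± 0.12, SE; adjusted p = 0.000486), 1.28 under the trimmed mean and −0.04 (adjusted p = 0.663) under quantile normalisation. CCT7 read 193 and 299.9 in r3, against 468 to 662.5 (log2FC −1.19, adjusted p = 0.000194), and CCT6A read 494 and 979.5, against 1204 to 1818 (log2FC −1.04, adjusted p = 0.00143). Both were lower in r3 under all 3 scalings. CCT5 (log2FC −0.71) was called under 2 of them, and CCT3, read by a dim probe set at 5.37 and 12.1 in r3, against 9.89 to 73.5, overlapped with other arrays (log2FC −1.68, adjusted p = 0.019). CCT2, CCT4 and CCT8 were not called under median scaling, CCT2 with 636 and 977 in r3, against 889.9 to 1193 (adjusted p = 0.086), and CCT4 with 1332 and 1030.0, against 1031 to 1806 (adjusted p = 0.202). Under quantile normalisation these genes were called lower (−0.33, −0.36 and −0.50, adjusted p = 0.0391, 0.00314 and 0.00454). They were not called under the trimmed mean. Subunits that occupy the ring in equal number thus spanned −1.68 to 0.72 in log2FC under median scaling. Neither end, CCT3 or TCP1, was called under all 3 scalings. CCT3 lost its call under quantile normalisation (adjusted p = 0.0596) and under the trimmed mean (adjusted p = 0.118). PSMC3IP, which is no subunit, read 107 and 128 in r3, against 221 to 284 (log2FC −1.09, adjusted p = 0.000158).

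In m, 6 members were called higher and 1 lower, against 6.33% and 2.16% of all probe sets, and both m arrays lay above all 10 others in 7 members, beside 8.72%. PSMD3 read 191 and 185 in m, against 5.14 to 150.3 elsewhere, a log2FC of 1.85 ± 0.36 (SE; adjusted p = 0.0097). PSMD2 read 309 and 353 in m, against 21.05 to 293 (log2FC 1.65, adjusted p = 0.00176). Both genes had their highest values in m, lower ones in r1 and r2, and their lowest in r3 to r5. PSMD13 (log2FC 1.01, adjusted p = 0.0431), PSMC5 (0.85, adjusted p = 0.0373), PSMB4 (0.80, adjusted p = 0.0169) and PSMA7 (0.67, adjusted p = 0.0192) were the other 4. PSMD13 apart, these calls stood under all 3 scalings, so 5 members did, against 3.95% of all probe sets. Each m array was needed for most of them: without set 1 of m 1 member was called higher, and without set 2 of m 0 were, against 0.272% and 0.267% of all probe sets. Leaving out an r3 array instead gave 12 without set 1 and 14 without set 2, against 15.5% and 21.2% of all probe sets. PSMC5 and PSMD13 also lost their call without 8 and 9 of the 12 arrays, 1 at a time. TCP1 was lower in m, at 2223 and 2435, against 2138 to 4543 (log2FC −0.43, adjusted p = 0.0488), and lost the call under quantile normalisation and when any of 8 arrays was left out (adjusted p = 0.065 to 0.413).

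**Figure D3:**
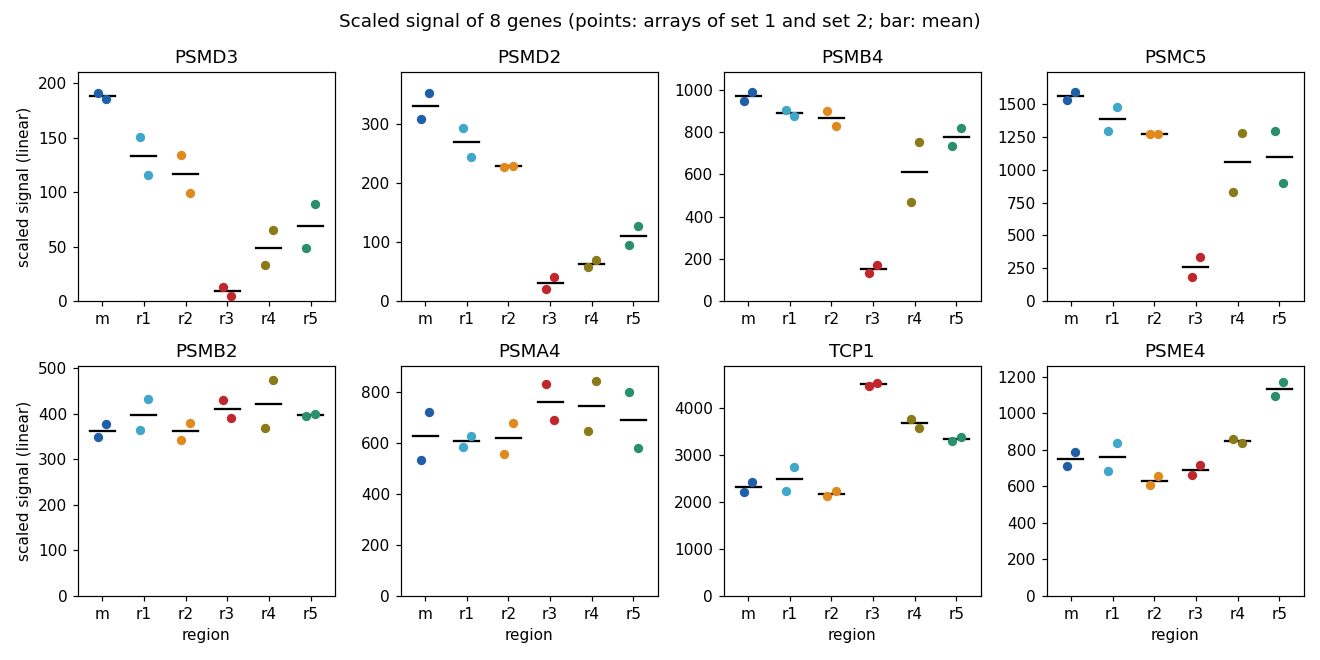
Linear scaled signal is plotted by region for 8 members, with a point for each of the 2 arrays and a bar at their mean, and each vertical axis starts at 0. PSMD3 and PSMD2 are highest in m, then r1 and r2, and lowest in r3, PSMB4 and PSMC5 are low in r3, PSMB2 and PSMA4 are flat, TCP1 is highest in r3, and PSME4 is highest in r5.

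The other regions held few calls, and that of PSMD2 in r1 was lost without set 1 of m or without either r1 array. In r1, 1 member was higher (PSMD2, at 293 and 245 in r1; log2FC 1.29, adjusted p = 0.0159) and 0 were lower, against 1.65% and 0.612% of all probe sets, and the higher count was 12 without set 1 of r3 and 16 without set 2, against 10.01% and 18.05% of all probe sets. In r2, 0 members were higher and 0 lower, against 0.29% and 0.106%, and the counts were 3 and 1 without set 1 of r3, against 2.6% and 1.17%, and 8 and 3 without set 2, against 10.02% and 2.93%. In r4, 0 were higher and 1 lower (PSMD2, at 57.9 and 69.8 in r4; log2FC −1.20, adjusted p = 0.0313), against 0.69% and 0.456%, and that call was lost when any of 9 arrays was left out (adjusted p = 0.0652 to 0.285), while without set 2 of r3 8 members were higher in r4, against 5.56%. In r5, PSME4 was the 1 higher and 0 were lower, against 1.14% and 0.566%, and without set 2 of r3 3 were higher, against 4.38%. Because r3 enters the mean of the others in each of these contrasts, the regions were also compared without both r3 arrays.

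Without r3, the F test called 7 members, CCT4, PSMB7, PSMD13, PSMD2, PSMD3, PSME4 and TCP1, against 19.04% of all probe sets. PSMD2 and PSMD3 remained higher in m (log2FC 1.2, adjusted p = 0.000167, and 1.19, adjusted p = 0.0109), 2 members against a background of 5.03%. In r4, 5 members were lower, against 11.2%, and 5 were higher, against 5.63%. PSMD2 was lower by the most, with a log2FC of −1.77 (adjusted p = 5.47e-06), followed by PSMD3 (−1.34, adjusted p = 0.00325), and PSMB5, PSMF1 and PSMB4 were lower too. Those higher in r4 were TCP1 at 3783 and 3587 (log2FC 0.53, adjusted p = 0.00502), CCT4 at 1736 and 1806 (0.47, adjusted p = 0.0093), PSMB7, PSMD14 and PSMD6. The 5 higher calls in r4 moved to 1 under quantile normalisation, against 8.07% of all probe sets, and 13 under the trimmed mean, against 8.88%. Of the 5, CCT4 alone stood under all 3 scalings, by its brightest probe set, whereas PSMD2, PSMD3, PSMB4 and PSMF1 were lower in r4 under all 3. A second probe set of CCT4 went the other way. It averaged 74.9 in r4 and 75.1 in r5, against 193 in m, 148 in r1 and 135 in r2. In r5, 1 member was higher (PSME4), against 2.5%, and 2 were lower, against 4.6%, PSMD2 (log2FC −0.78, adjusted p = 0.00485) and PSMD13 (−0.82, adjusted p = 0.0327). Thus PSMD2 differed among the regions with and without r3, higher in m and r1 and lower in r4. Without r3 it was also lower in r5, at 95.7 and 127, under all 3 scalings. The r2 arrays, at 228 and 229, lay between and were not called under median scaling. The r4 and r5 arrays, which stay in this comparison, had higher actin 3′ to 5′ ratios than those of m, r1 and r2. The part of that ratio in these differences was not tested.

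Of the 45 members, 19 had more than 1 probe set, and in 14 the second brightest was tested as well. The second probe set gave a lower log2FC in r3 than the brightest in 10 of these 14. The brightest was picked by its mean over all 12 arrays, those of r3 among them. In r3, 7 of the 14 second probe sets were called lower, beside 39.7% of all probe sets, 3 of them together with the brightest. CCT4 differed most. Its brightest probe set read 1332 and 1030.0 in r3 (log2FC −0.22), and its second read 5.90 and 15.8 in r3, against 62.8 to 202 elsewhere (log2FC −3.59 ± 0.30, SE; adjusted p = 7e-06). The second probe set of PSMB7 read 24.8 and 25.4 in r3, against 35.7 to 62.4 (log2FC −0.98, against 0.27 for the first), that of PSME4 read 8.22 and 8.95, against 15.4 to 35.2 (−1.33, against −0.23), and that of PSMG4 gave −2.03 (adjusted p = 0.0424), against 0.54. Under median scaling PSMD2 was lower by both (−3.78 and −2.52), as were CCT6A and PSME3. In r3 the second probe set was dim for PSMD2 (3.44 and 0.605), CCT6A (5.09 and 1.15) and PSMG4 (5.49 and 0.905). Those of CCT8, PSMA2, PSMA6, PSMB5 and PSMD7 were dim too, with r3 means of 8.94, 5.71, 15.3, 6.28 and 7.13. In PSMD13 the second, dim probe set gave 0.82 (adjusted p = 0.276), against −2.07 for the first. Where along the transcript each probe set lies was not analysed here, and the part of the 3′ to 5′ ratio in these differences was not tested.

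**Figure D4:**
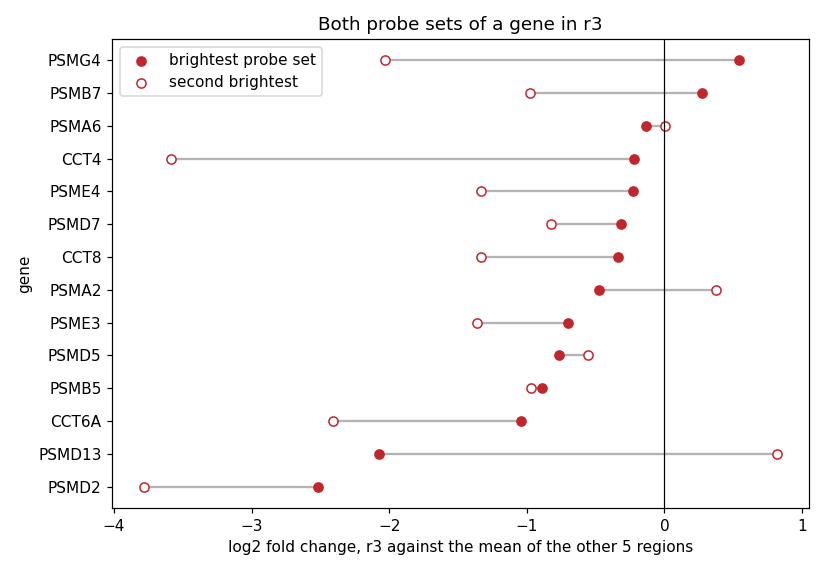
For the 14 members with 2 tested probe sets, the log2FC of r3 against the mean of the other 5 regions is shown for the brightest (filled) and the second brightest probe set (open), joined by a line. The second lies to the left in 10 genes, farthest in CCT4 (−3.59 against −0.22). It lies to the right in PSMD13 (0.82 against −2.07), PSMA2 (0.373 against −0.475), PSMA6 and PSMD5.

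Genes that work with the 2 machines were read alongside them. Of 30 listed partners of the proteasome 22 were annotated and tested, 12 passed the F test (54.5%, beside 34.9% of all probe sets), and in r3 9 were lower (40.9%, close to the 39.7% of all probe sets) and 4 higher (18.2%, beside 7.12%). NFE2L1, the transcription factor that in mammals raises proteasome genes when the protease is blocked, read 1133 and 836 in r3, against 296 to 531 (log2FC 1.38 ± 0.14, SE; adjusted p = 2.09e-05), higher than in every other array and called under all 3 scalings. RPS27A, a ubiquitin fusion gene, read 7640 and 4630.0 in r3, against 2219 to 3740 (log2FC 1.07, adjusted p = 0.000376), and was not called under quantile normalisation (0.07, adjusted p = 0.297). AKIRIN2, which in human cells brings proteasomes into the nucleus, read 120.5 and 289 in r3, against 498 to 690.0 (log2FC −1.71, adjusted p = 0.000189), and held under all 3 scalings. NFE2L2, the oxidative stress factor related to NFE2L1, read 102 and 200.1 in r5, against 20.7 to 75.2 elsewhere (log2FC 1.45, adjusted p = 0.0204). Of 14 listed partners of the chaperonin 12 were annotated and 11 tested, and 6 passed the F test (54.5%, beside 34.9% of all probe sets). In r3, 7 were lower (63.6%) and 1 higher (9.09%), beside 39.7% and 7.12% of all probe sets. Prefoldin, the jaw-like complex that hands unfolded actin and tubulin to the chaperonin, was split: PFDN5 read 40.3 and 135 in r3, against 255 to 592 (log2FC −2.58, adjusted p = 9.56e-05), PFDN2 read 30.9 and 29.5, against 56.7 to 166 (log2FC −1.79), and PFDN4 was higher (0.72, adjusted p = 0.0117), all under all 3 scalings. PFDN2 was also higher in m (log2FC 1.08, adjusted p = 0.0137). PDCL3, a phosducin-like helper of the chaperonin, and TBCD, a tubulin folding cofactor downstream of it, were lower in r3 (log2FC −1.26 and −1.53) under all 3 scalings.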

How the data were processed

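Total RNA of the midbrain and of rhombomeres r1 to r5 was amplified, labelled and hybridised by the authors, 2 arrays a region. The authors condensed each probe set into an intensity on a linear scale with MAS5 in the Affymetrix GCOS software, version 1.2 per the study's methods, and deposited it unscaled. The mismatch correction of MAS5 makes dim intensities the least certain, and the number of arrays limits the precision. Genome build and probe positions are not given in the sources used here, and no sequence was searched.

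From the 38535 deposited probe sets 96 AFFX controls were removed. Each array was scaled to its median, a floor was laid at the pooled 20th percentile (1.03), and values were put on the log2 scale. The filter asked that a probe set exceed the median of the array on both arrays of any 1 region, which 21731 of 38439 did. Folds near that floor are understated. Symbols came from the platform annotation. Of the members' probe sets 71 carry 1 symbol and 6 carrying several were left out. The 6 region means were fitted in limma 3.58.1 (R 4.3.3; lmFit, eBayes with trend, 6 residual and 6.00 prior degrees of freedom), with a moderated F test, a contrast of each region with the mean of the other 5, and Benjamini-Hochberg adjustment for each test over all probe sets kept. The code was tested on simulated data. p-values measure the spread between pools of a region, which the labels number as sets. Same-numbered arrays did not deviate together (correlation over 0.1 in 0 of 15 pairs of regions, −0.0418 to 0.0706), and no 2 arrays held identical values.

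Members and lists were chosen with earlier results of these data known. Genes named with their signals are, in each role group, up to 4 with the smallest F test p and the 1 with the largest, up to 5 called in each direction of each contrast, and up to 4 of each partner list, and other members are given more briefly. Alternatives were quantile normalisation, 2% trimmed mean scaling, no filter, no floor, the set as a replicate block, no intensity trend, a one-way ANOVA without moderation, the second probe set, and leaving out both r3 arrays or each array. The study's methods name a one-way ANOVA, but after their own normalisation and filter, which were not used here. The pairs of r3 removal with quantile or trimmed mean scaling were added after seeing the data. Figures used matplotlib 3.10.9 in Python 3.11.15.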

Additional observations from a re-analysis of the deposited data

How the results depend on the processing

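Of 840 fold changes of called members under an alternative, 704 kept direction and call, 125 lost the call and 11 turned round. With no floor all 42 kept their call. The cause of a moved count was not tested. Under quantile normalisation the count lower in m was 0, against 5.46% of all probe sets. The count higher was 3 in r1 and 1 in r2, against 1.28% and 0.4%. PSMG2 (0.145) and TCP1 (−0.044) turned round in r3. Trimmed mean scaling gave 17 lower and 8 higher in r3, against 23.6% and 18.01% of all probe sets. It turned PSMA1 (0.127), PSMA2 (0.087), PSMA3 (0.049), PSMD1 (0.116) and PSMG2 (0.056). With no filter 0 were lower in m, 0 lower in r4 and 0 higher in r5, against 0.749%, 0.12% and 0.585% of all probe sets. With no intensity trend the F test called 13, against 25.8% of all probe sets. In m 2 were higher and 0 lower, against 3.11% and 1.41%. There were 0 higher in r1, 1 higher in r3, 0 lower in r4 and 0 higher in r5. The shares of all probe sets were 0.594%, 7.2%, 0.506% and 0.824%. A one-way ANOVA without moderation, on the values scaled and filtered here, called 13, against 19.3% of all probe sets. It gave 1 higher in m, 0 higher in r1 and 0 lower in r4, against 2.73%, 0.709% and 0.262%. Second probe sets gave 0 higher in r1, 1 higher in r3, 0 lower in r4 and 0 higher in r5. The shares of all probe sets were 1.65%, 7.12%, 0.456% and 1.14%. The second probe sets also turned PSMA2 (0.373), PSMD13 in r3 (0.817) and in m (−0.417), and PSMG4 (−2.03).

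Without both r3 arrays the F test called 7, against 19.04% of all probe sets. In m 2 were higher and 0 lower, against 5.03% and 2.8%. In r4 5 were higher and 5 lower, against 5.63% and 11.2%, and in r5 2 were lower, against 4.6%. With quantile normalisation besides, the F test called 10, against 21.6%, and 0 were lower in m, against 5.65%. In r4 1 was higher and 7 lower, against 8.07% and 10.4%, and in r5 4 were lower, against 5.27%. With the trimmed mean besides, 3 were higher and 3 lower in m, against 6.45% and 6.01%, and 1 was higher in r2, against 1.003%. In r4 13 were higher and 7 lower, against 8.88% and 12.8%. In r5 4 were higher and 4 lower, against 4.98% and 5.89%. Leaving out 1 array at a time, the F test called 19 to 36. The count higher ran from 0 to 14 in m, 0 to 16 in r1, 0 to 8 in r2, 1 to 2 in r3, 0 to 8 in r4 and 0 to 3 in r5, and the count lower from 0 to 1 in m, 0 to 1 in r1, 0 to 3 in r2, 26 to 32 in r3, 0 to 1 in r4, and was 0 in r5. The highest F test count and the highest counts of higher members in m, r1, r2 and r4 came without set 2 of r3. The matching shares of all probe sets were also highest there among these fits. With the set number as a replicate block the F test called 24 members, against 34.1% of all probe sets. In r3 30 were lower and 2 higher, against 39.6% and 7.02%, and in m 6 were higher, against 5.84%. The block changed no call in a region contrast. With 2 arrays a region, a lone array left by leaving out its pair is assumed to vary like the other regions, and low signals, as in PSMB5 and CCT3, limit what these arrays can show.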
